A study of Mus musculus with 2 samples.

Results

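The genes described here are 8 components of the tight junction, the claudins Cldn1, Cldn3, Cldn4, Cldn6 and Cldn7, occludin (Ocln), the scaffold protein ZO-1 (Tjp1) and junctional adhesion molecule A (F11r). They were taken by symbol from the gene lists of both single-cell RNA-seq libraries of the series, and all 8 were found among the 27998 genes listed at E12.0 and the 31053 listed at E9.5. They were read beside 47 other genes of a wider tight junction list. That list had 49 further symbols, of which Cldn25 and Symk were not found and are not analysed here.

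The study sequenced cells of the developing mouse mandible, 1 library per stage, and both stages carried the K14Cre;R26mT/mG alleles. In these mice K14-driven Cre turns on membrane GFP in epithelial cells, while cells without Cre activity keep the tdTomato label, so the E12.0 cells are limited to epithelium in which the promoter had been active. For the E12.0 library, mandibular epithelium of 6 embryos of 1 litter was dissociated and its GFP-positive cells were sorted, and the E9.5 library held unsorted cells of the mandibular arches of 8 embryos of 1 litter, epithelium and mesenchyme together. No treatment was given to either group. The embryos of a litter were pooled, so each stage was 1 sample without replicates, no test between groups was possible, and the intervals below are exact 95% intervals that cover counting error only. Stage, library, cell sort, gene list and the marker genes used to choose cells changed together and cannot be told apart.

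Tight junctions seal the space between neighbouring epithelial cells near their apical side. Claudins form the strands, and the claudins a cell makes set which ions and molecules pass, occludin joins the strands, ZO proteins tie the strands to actin, and JAM proteins are immunoglobulin-like adhesion molecules that help position the polarity complexes. In embryonic skin and oral epithelium the periderm, a transient flat outer layer, covers the surface and keeps opposing epithelia from adhering. The paper places periderm in a single cluster with suprabasal cells, which lie between it and the basal layer. It reports that markers specific to this cluster labelled both cell types but not the basal layer.

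Positions are given on the mouse genome build GRCm38. Cldn3 (chromosome 5, 134986214-134987472, plus strand) and Cldn4 (chromosome 5, 134945119-134946934, minus strand) are neighbours with 39279 bases between them. Cldn6 (chromosome 17, 23679249-23682446) is separated by 137 bases from Cldn9, which runs towards it on the other strand. Cldn1 is on chromosome 16 (26356642-26371841), Cldn7 on chromosome 11 (69964779-69967885), Ocln on chromosome 13 (100496507-100552718), Tjp1 on chromosome 7 (65296165-65527781) and F11r on chromosome 1 (171437535-171464603). The promoter windows of the 4 genes with the highest ratios in periderm (Cldn3, Ocln, Cldn7 and Cldn4, below) are shown from RefSeq sequence of build GRCm38.p6, each covering the 250 bases before a gene start and none of them overlapping an annotated exon.
Cldn3 (chr5:134985964-134986213, plus strand): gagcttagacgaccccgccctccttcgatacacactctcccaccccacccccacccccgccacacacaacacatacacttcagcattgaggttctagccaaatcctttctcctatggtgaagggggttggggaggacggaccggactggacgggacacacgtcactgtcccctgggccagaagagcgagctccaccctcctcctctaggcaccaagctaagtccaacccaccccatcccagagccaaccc
Ocln (chr13:100552719-100552968, minus strand): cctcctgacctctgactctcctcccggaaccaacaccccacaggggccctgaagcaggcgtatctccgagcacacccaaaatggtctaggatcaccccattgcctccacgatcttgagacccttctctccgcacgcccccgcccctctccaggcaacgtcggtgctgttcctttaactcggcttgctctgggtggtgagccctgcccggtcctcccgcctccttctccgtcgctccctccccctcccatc
Cldn7 (chr11:69964529-69964778, plus strand): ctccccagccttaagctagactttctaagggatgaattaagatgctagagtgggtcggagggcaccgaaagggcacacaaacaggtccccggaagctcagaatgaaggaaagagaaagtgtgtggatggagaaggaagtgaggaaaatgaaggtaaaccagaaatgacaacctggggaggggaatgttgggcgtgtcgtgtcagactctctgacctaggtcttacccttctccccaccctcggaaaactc
Cldn4 (chr5:134946935-134947184, minus strand): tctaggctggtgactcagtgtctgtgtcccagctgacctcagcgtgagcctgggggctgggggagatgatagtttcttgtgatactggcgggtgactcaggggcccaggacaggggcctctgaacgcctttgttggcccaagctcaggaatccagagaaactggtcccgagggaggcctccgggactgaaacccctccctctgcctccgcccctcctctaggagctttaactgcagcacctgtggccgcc
All letters are in lower case because neither of the 2 motifs searched, the grainyhead letters AACCGGTT and AACNNGTT, of which the first is a case of the second, was found on either strand in any window of the 8 genes. Among all 32817 promoter windows of this length, 0.116% held AACCGGTT and 3.64% held AACNNGTT. The absence says only that these letters are not in these windows.

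Expression is given as CPM (counts per 1000000), for which the unique molecule counts (UMIs) of a gene in all cells of a group were added up and divided by the group's total. Counting is from the 3′ end, 1 count per captured molecule, so CPM carries no length scaling. Cells were kept with 200 to 5500 genes and at most 10% mitochondrial counts, which left 11355 cells at E12.0 (median 6349 UMIs) and 12744 at E9.5 (median 13460 UMIs). The kept cells of both libraries had 44 barcodes in common. Groups were gated on summed UMIs of genes that are not members. A gene was called raised in a group when its CPM was at least 1.3 times that of the other group and 15% or more of the cells in the group with the higher CPM had a UMI of it, a criterion of size and not a test. Lowered is the same in the other direction. A gene is called measurable in a comparison when 15% or more of the cells of either group had a UMI of it. A gene that reached this share in a single group could not be called raised in the other, so counts of calls partly follow from this limit.

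The E12.0 periderm gate took cells with 3 or more UMIs of Ppl, Pkp1, Grhl3 and Nebl together, 503 of 11355 cells, with a median of 6513 UMIs against 6342 in the other 10852. Of the markers of periderm and suprabasal cells not used in the gate, Zfp750, a regulator of epidermal differentiation, was at 108 against 2.25 CPM. Rhov was at 45.9 against 0.391. The gate can hold suprabasal cells as well as periderm, and their share was not tested. Periderm is used below as a short name for the cells of this gate. The 4 blood markers summed to 0 CPM, and the 5 of mesenchyme to 5.34 CPM in the gate, where 3 of them were at 0, and 7.44 outside it. Some other lists were higher in the gate. The 6 endoderm markers summed to 108 CPM against 46.1, with Shh at 59.3 against 17.7, and the 3 neuron markers to 16.3 against 4.26. The initiation knot gate below, which uses Shh, was applied only outside the periderm gate. The periderm gate can therefore hold such cells, and their share was not tested. Called doublets were 12.3% of the gate and 5.52% of the other cells.

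Summed over the cells of each group, members of the tight junction were higher in the periderm gate than in the other E12.0 cells. By CPM all 8 were above the other E12.0 cells, from 1.44 times for F11r to 17.0 times for Cldn3. Of the 8, 7 were measurable in this comparison and all 7 met the size criterion, against 10.8% of the 6581 measurable genes. Cldn1, Cldn4 and Ocln were measurable only through the periderm gate, so they could not have been called lowered. The members were chosen with earlier results of these data known. The paper also reports tight junction genes, Cldn4 among them, as features of its periderm and suprabasal cluster. The median log2 ratio was 1.84 over the 8 genes and -0.02 over those 6581. The genes with the widest gap were Cldn3, Ocln, Cldn7 and Cldn4. The difference did not hold for all 8 in every part of the gate. In its cells with anterior markers, described below, F11r was at 27.2 CPM (16.4 to 42.4) and Cldn1 at 11.4 (4.94 to 22.5). Both were below the other E12.0 cells, with overlapping intervals, while the remaining members were above them.

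Cldn3, a barrier claudin, stood at 29.1 CPM (23.9 to 35.1) in the periderm gate and at 1.71 CPM (1.43 to 2.04) in the other cells, a log2 ratio of 4.09 (3.71 to 4.47). It was the 1 member that missed the criterion, because 14.5% of periderm gate cells had a UMI. Ocln, the tetraspan protein of the strand, was at 51.0 CPM (44.0 to 58.8) against 4.83 (4.34 to 5.35), a log2 ratio of 3.40 (3.14 to 3.66). Over all cells outside the gate they were sparse, with a UMI in 1.07% and 3.13% of cells, though Cldn3 reached 16.03% of the salivary and Ocln 12.5% of the tongue cells described below.

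Cldn7, which is found along basolateral membranes as well as in junctions of many epithelia, was at 158 CPM (145 to 171) in periderm and 32.9 (31.6 to 34.2) elsewhere, a log2 ratio of 2.26 (2.13 to 2.39). Cldn4, a claudin that restricts sodium passage, was at 84.1 CPM (75.1 to 94.0) against 18.7 (17.8 to 19.8), a log2 ratio of 2.17 (1.98 to 2.34). Cldn6, a claudin of embryonic epithelia, was at 151 CPM (139 to 164) against 53.1 (51.5 to 54.8), a log2 ratio of 1.51 (1.38 to 1.63). These 3 claudins were plainly present in the other cells too, and none of the intervals of the 2 groups overlapped.

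The smaller ratios belonged to the scaffold, the adhesion molecule and Cldn1. Tjp1, which links claudins to actin, was at 194 CPM (180 to 209) against 97.9 (95.7 to 100.2), a log2 ratio of 0.99 (0.88 to 1.10). Cldn1, required for the skin barrier, was at 27.2 CPM (22.2 to 33.1) against 13.8 (13 to 14.7), a log2 ratio of 0.98 (0.67 to 1.27). Its place depended on the cell filter, since with at most 5% mitochondrial counts the log2 ratio of Cldn1 was 1.92, beside 1.91 for Cldn4 and 1.32 for Cldn6. F11r was at 49.9 CPM (43.0 to 57.6) against 34.7 (33.3 to 36.0), the narrowest difference at a log2 ratio of 0.53 (0.30 to 0.74).

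**Figure D1:**
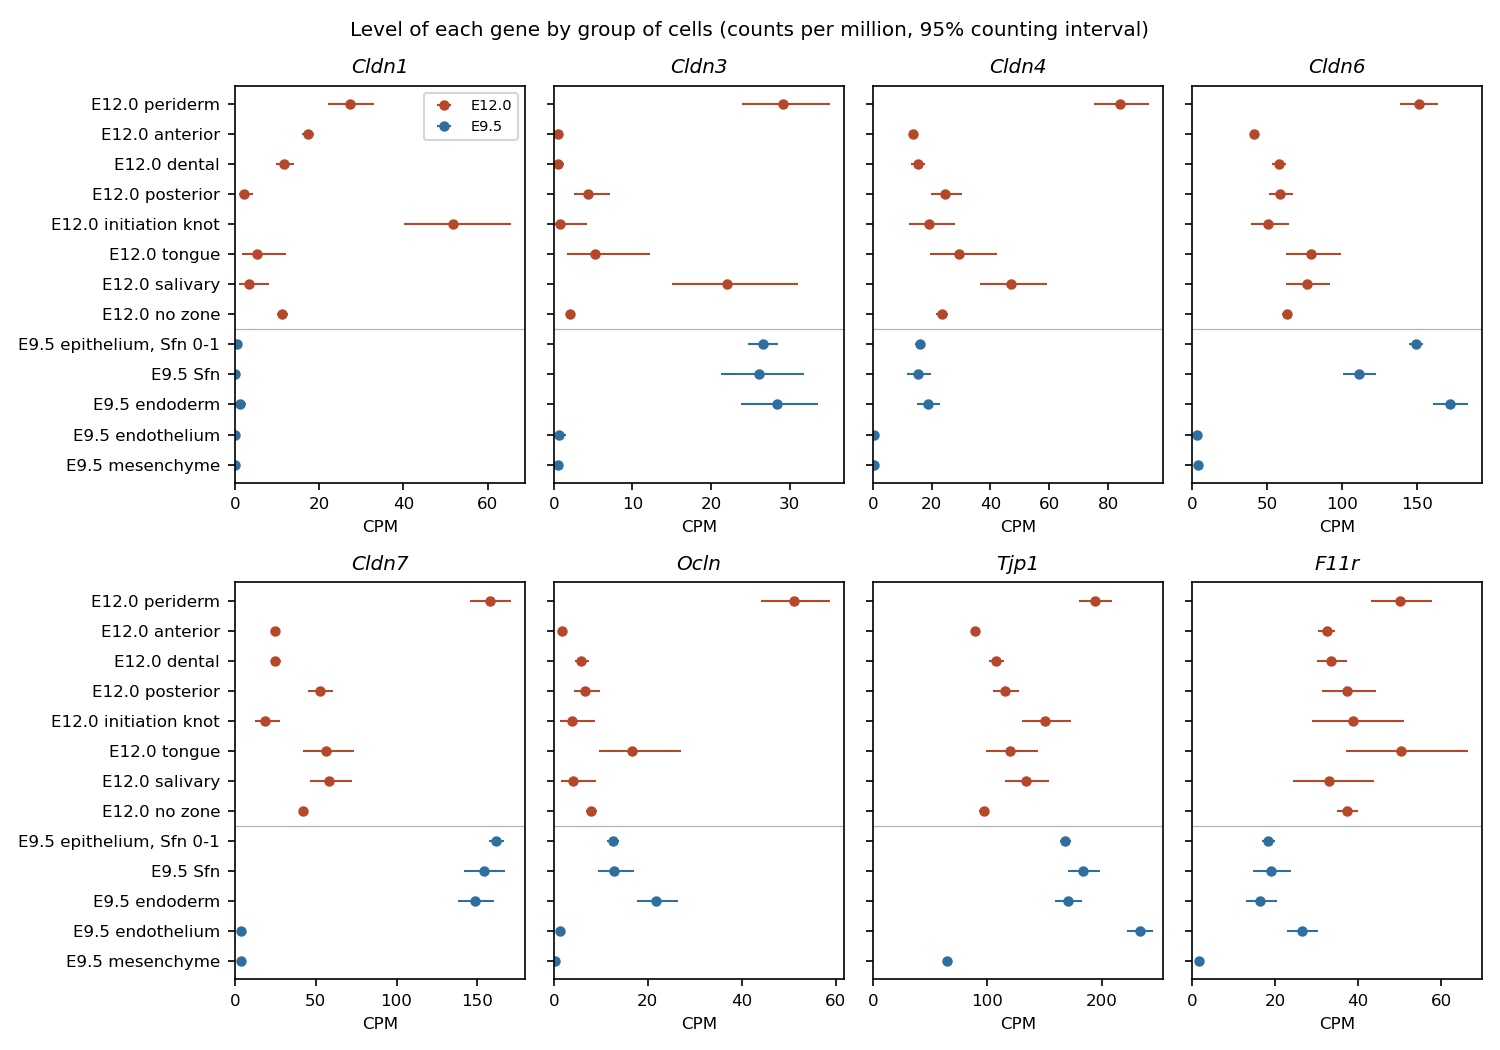
CPM of each of the 8 genes (horizontal axis, a separate linear scale per gene) in 8 groups of E12.0 cells (red) and 5 groups of E9.5 cells (blue), with 95% counting intervals. The periderm gate is the highest E12.0 group for Cldn3, Cldn4, Cldn6, Cldn7, Ocln and Tjp1, while Cldn1 peaks in the initiation knot gate at 51.7 CPM.

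Shares of cells with a UMI moved with CPM after every cell was thinned to 4100 UMIs, with 457 periderm gate and 9874 other cells deep enough. Ocln was detected in 18.8% (15.3 to 22.7) of thinned periderm gate cells and 1.96% (1.70 to 2.26) of the others, against 29.8% and 3.13% before thinning. Cldn7 was detected in 41.6% (37.0 to 46.2) and 12.0% (11.4 to 12.7), against 57.1% and 17.5% before. Of the thinned periderm gate cells 18.8% had a UMI of 4 or more of the 8 genes, compared with 0.699% of the other cells. The E12.0 library has no cell class that should lack these genes, and in E9.5 mesenchyme, described below, the thinned shares were 0.0448% for Ocln and 1.3% for Cldn7.

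Most of the genes climbed with the number of gate UMIs. Cells with 2 gate UMIs, just outside the gate (348 cells), had 64.9 CPM of Cldn7, 12.8 of Ocln, 74.7 of Cldn6, 35.7 of Cldn4 and 3.38 of Cldn3. Cells with 3, just inside it (133 cells), had 105 CPM of Cldn7, 28.3 of Ocln, 118 of Cldn6, 41.9 of Cldn4 and 19.9 of Cldn3. Across this step F11r went from 43.9 to 32.5 CPM and Cldn1 from 17.6 to 15.7, with overlapping intervals, and the step of Cldn3 was its widest. With 10 or more gate UMIs (77 cells), Cldn7 reached 226 CPM, Tjp1 260.2, Cldn4 112, Ocln 68.6 and Cldn3 43.6.

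Cldn6 and Cldn1 levelled off inside the gate. Cldn6 was at 167, 170 and 140.3 CPM in cells with 4 to 5, 6 to 9 and 10 or more gate UMIs, and Cldn1 at 31.6, 31.7 and 29.6. Called doublets made up 4.47% of cells without a gate UMI, 14.7% of those with 2, 9.02% of those with 3 and 14.3% of those with 10 or more.

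**Figure D2:**
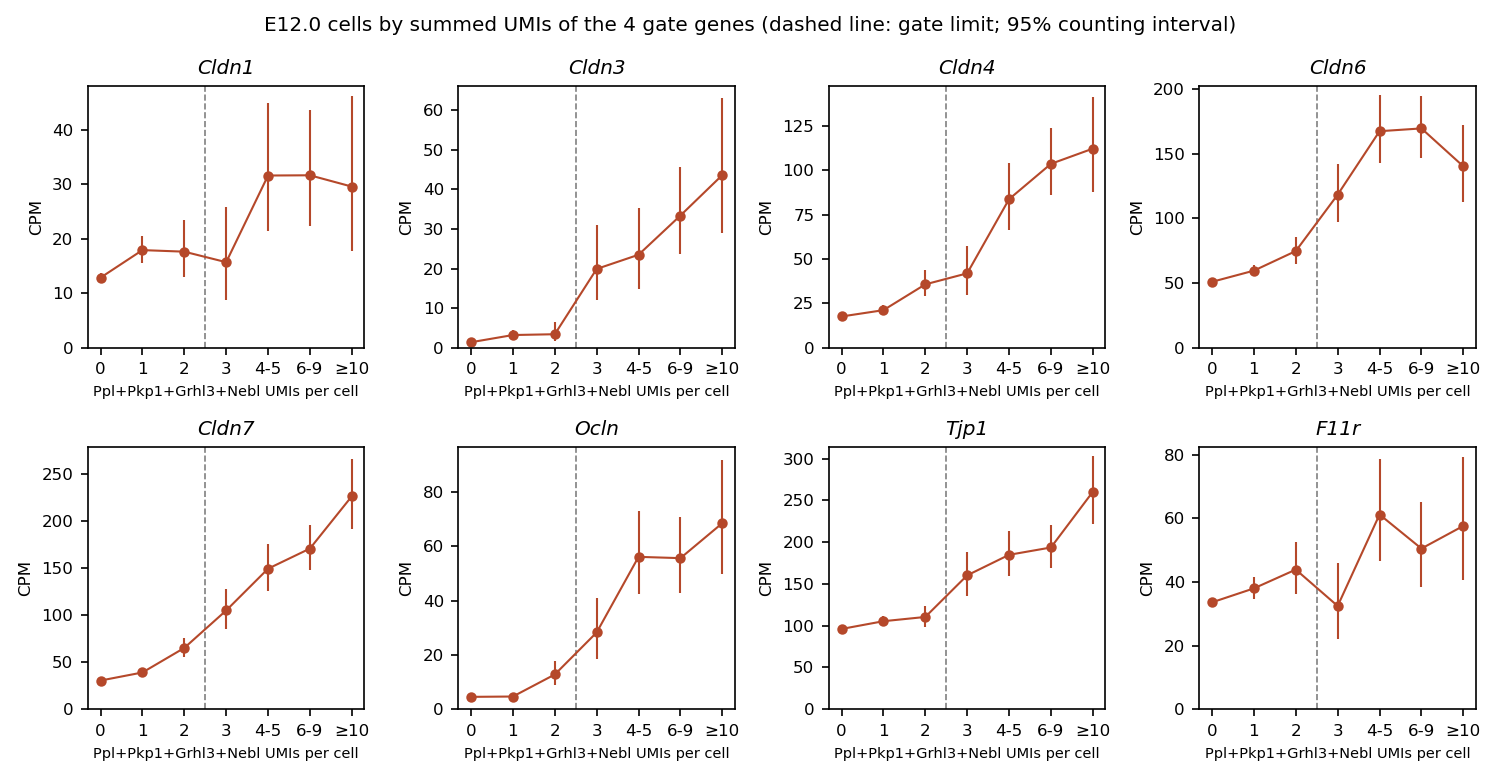
CPM of each gene (vertical axis) in E12.0 cells grouped by their summed UMIs of the 4 gate genes (horizontal axis), with 95% counting intervals and the gate limit dashed. Cldn7 goes from 30.3 CPM in cells without a gate UMI to 226 in those with 10 or more, whereas F11r stays between 32.5 and 61.3.

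Periderm gate cells differed among themselves. Of the 503, 305 carried no marker set of a mandibular zone, 80 carried the anterior set alone, 92 the dental set alone and 9 the posterior set alone. Cldn3 stood at 45.2 CPM (36.2 to 55.8) in the cells without zone markers, 10.01 (4.02 to 20.6) in those with the anterior and 8.67 (3.49 to 17.9) in those with the dental markers. The 9 cells with posterior markers had 8 UMIs of Cldn3, or 86.3 CPM (37.3 to 170.1), an interval that overlapped that of the cells without zone markers, and were too few for the other genes. Among the remaining 3 sets Cldn4 was highest in the cells without zone markers, at 121 CPM (106 to 138), but lay lower with the anterior markers, at 31.4 (19.7 to 47.6), than with the dental ones, at 60.7 (44.9 to 80.3), the intervals of which overlapped narrowly. Ocln showed the same order, at 67.8 CPM (56.6 to 80.6) in cells without zone markers, 44.6 (31.2 to 61.8) with dental and 28.6 (17.5 to 44.2) with anterior markers, the last 2 with overlapping intervals. Cldn1 differed, having its highest value of the 3 with the dental markers at 39.7 CPM (27.1 to 56.0), against 27.3 (20.4 to 35.9) without zone markers and 11.4 (4.94 to 22.5) with the anterior set. The interval without zone markers overlapped each of the others. Outside the periderm gate, cells of no zone, the dental and the anterior zone (described below) had the same order for Cldn4, at 23.6, 15.3 and 13.7 CPM. The order also held there for Ocln, at 7.94, 5.89 and 1.68 CPM, and Cldn3 was at 2.04, 0.599 and 0.526. Cldn1 was at 11.2, 11.8 and 17.3. These outside groups leave out initiation knot, tongue and salivary cells (described below), which the sets inside the periderm gate can hold. With such cells kept, the 4250 non-periderm cells without zone markers had 24.0 CPM of Cldn4, 7.95 of Ocln, 2.72 of Cldn3 and 11.9 of Cldn1.

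Median depth in the periderm gate was 5772 UMIs without zone markers, 7759.5 with anterior and 8201 with dental markers, and its part was not tested. Called doublets were uneven here, with 3.61% of the periderm gate cells without zone markers, 32.5% of those with anterior and 8.7% of those with dental markers. Without them, in an alternative chosen after seeing the data, Cldn3 was at 48.0, 5.31 and 8.63 CPM in the same order, Cldn4 at 124, 31.8 and 61.8, and Ocln at 69.5, 13.3 and 50.3. The order of the levels was as before for these 3 genes except that anterior fell below dental for Cldn3, with 2 and 6 UMIs behind those values.

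The 94 periderm gate cells with 2 or more UMIs of the contractile genes Tagln and Acta2 had more Tjp1 than the other 409, at 249.5 CPM (216 to 286) against 179 (164 to 195). They had less Cldn3, at 13.5 CPM (6.75 to 24.2) against 33.4 (27.1 to 40.8), and less Cldn6, at 118 CPM (95.6 to 144) against 160.1 (146 to 175). Cldn1, Cldn7 and F11r were at 27.04, 155 and 50.4 CPM in these cells and at 27.3, 158 and 49.8 in the rest. Called doublets were 15.96% and 11.5% of the 2 sets. Without them Tjp1 was at 282 CPM (241 to 327) against 189 (172 to 208) and Cldn3 at 16.7 (7.99 to 30.6) against 38.9 (31.3 to 47.8), whereas the intervals of Cldn6, at 139.9 (112 to 173) and 174 (157 to 191), overlapped.

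Of the 47 other genes of the tight junction list, 17 were measurable in this comparison, of which 9 were raised in the periderm gate and 0 were lowered, against 10.8% and 6.99% of the 6581 genes, and the median log2 ratio of the 31 with UMIs on both sides was 0.49. Those with the largest ratios included Marveld2, Cldn10, Cgn and Crb3. Marveld2, tricellulin, which seals the corners where several cells meet, was at 49.1 CPM against 5.55. Cldn10, an ion-channel-forming claudin, was at 38.5 CPM against 6.33, and Cgn, the scaffold cingulin, at 61.4 against 23.1. Crb3, an apical polarity protein, was at 34.5 CPM against 14.9. Cldn23 was too sparse for the criterion, and its 17.9 CPM against 0.687 were picked out after the values were seen.

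**Figure D3:**
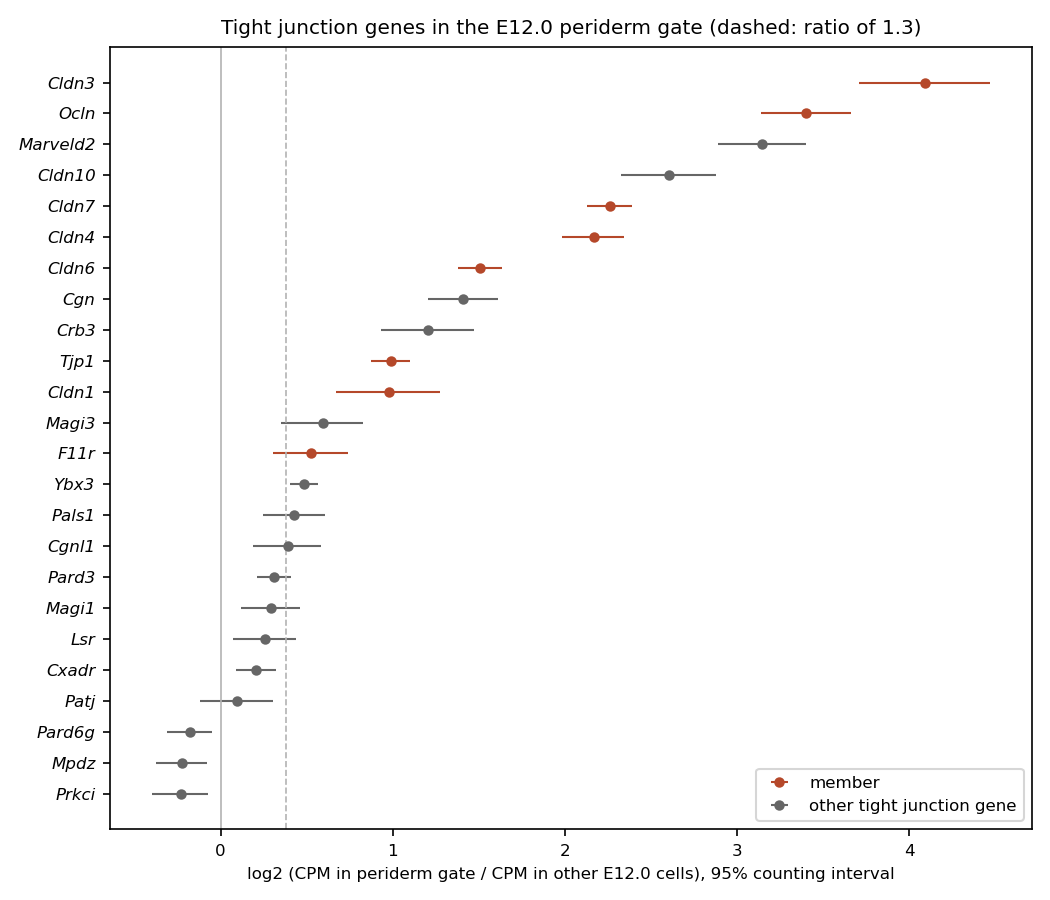
Log2 ratio of CPM in the periderm gate over the other E12.0 cells (horizontal axis) for the 8 genes (red) and other tight junction genes that reached the detection limit in either group (grey), with 95% counting intervals and the ratio of 1.3 dashed. Cldn3 at 4.09 and Ocln at 3.40 lead, and Prkci, Mpdz and Pard6g lie below 0.

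The call of Cldn1 was lost when cells were thinned, when a UMI in 25% of cells was asked for and when the gate was 1 UMI lower, and that of F11r when at most 5% mitochondrial counts were allowed. Cldn3 met the criterion without called doublets and with the gate 1 UMI higher, which makes 8 of 8.

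Across the tooth-forming, tongue and salivary regions of the E12.0 epithelium the question was whether the junction genes differ by place outside the periderm. Cells outside the periderm gate were put in an initiation knot gate, the signalling centre of the early tooth (3 or more UMIs of Shh, Dkk4 and Fgf20, 166 cells), a tongue gate (2 or more of Foxa1 and Foxa2, 104 cells) or a salivary gate (3 or more of Hpca, Col9a1 and Hpgd, 156 cells). The remaining cells were assigned to the anterior zone (6 or more of Cxcl14 and Tfap2b, 4362 cells), the dental zone (4 or more of a dental set that includes Irx1 and Irx2, 1235 cells) or the posterior zone (2 or more of Rtl3, Col14a1 and Dmrt2, 495 cells) when 1 of these applied. Cells that met several zones (303, of which 40.3% were called doublets) and those of no zone (4031) were kept apart. The initiation knot gate was applied before the tongue gate. The paper reports Shh in taste bud precursors as well, so the knot gate can hold such cells, and their share was not tested. Called doublets were 10.8% of the initiation knot, 13.5% of the tongue and 6.41% of the salivary gate.

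Cldn4, Cldn6 and Cldn7 differed between the 3 zones by the size criterion, 3 of the 8 genes. Of the members, 4 were measurable for the anterior, 4 for the dental and 5 for the posterior zone. The share of all genes that differed in any of the 3 zones was not counted, and only the share for each zone alone is given. Cldn7 and Cldn4 were raised in the posterior zone, where 9.73% of 6611 measurable genes were. Cldn7 was at 52.7 CPM (45.5 to 60.7) in the posterior, 25.2 (22.2 to 28.5) in the dental and 25.2 (23.4 to 27.01) in the anterior zone. Cldn4 was at 24.7 CPM (19.9 to 30.4) in the posterior zone, while the dental zone had 15.3 (12.96 to 17.9) and the anterior 13.7 (12.4 to 15.1). The anterior and dental intervals overlapped for both genes. Levels like the posterior ones were not limited to that zone. In tongue, salivary, no zone and initiation knot cells Cldn7 was at 56.4, 58.5, 42.1 and 19.0 CPM. Cldn4 was at 29.3, 46.8, 23.6 and 19.0 CPM there. The posterior call of Cldn4 rests on a UMI in 15.6% of cells, close to the limit of 15%.

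Cldn6 was raised in the dental zone, as were 9.36% of 6755 genes, with 57.7 CPM (53.1 to 62.6), while the anterior zone stood at 41.6 (39.3 to 43.9) and the posterior at 58.7 (51.1 to 67.2). It is therefore the anterior zone that stands below the other two, and with the thresholds 1 UMI lower the dental call was lost. Cldn6 was raised in the posterior zone when called doublets were left out. In tongue, salivary, no zone and initiation knot cells Cldn6 was at 79.4, 76.4, 63.3 and 50.9 CPM. No member was raised in the anterior zone, where 8.6% of 6719 genes were. Cldn1 ran the other way without reaching the detection limit, at 17.3 CPM (15.9 to 18.9) in the anterior, 11.8 (9.75 to 14.1) in the dental and 2.20 (0.948 to 4.33) in the posterior zone. Tjp1 at 89.1, 108 and 116 CPM and F11r at 32.4, 33.5 and 37.3 in anterior, dental and posterior varied least. Ocln was lowest in the anterior zone, at 1.68 CPM (1.25 to 2.20) against 5.89 (4.49 to 7.60) in the dental and 6.59 (4.22 to 9.80) in the posterior, and Cldn3 highest in the posterior, at 4.39 CPM (2.51 to 7.13) against 0.526 in the anterior and 0.599 in the dental zone. Both were too sparse for the criterion.

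The highest level of Cldn1 was in a small gate. It reached 51.7 CPM (40.1 to 65.5) in the initiation knot gate, above the 27.2 CPM of periderm and with no overlap of the intervals, and was 5.23 CPM (1.70 to 12.2) in the tongue and 3.44 (1.12 to 8.03) in the salivary gate. Of the E12.0 groups, Cldn7 was lowest in the initiation knot gate, at 19.0 CPM (12.3 to 28.0). That interval overlapped those of the anterior and dental zones. The salivary gate had 22.0 CPM of Cldn3 (15.1 to 31.1), whose interval overlapped that of the periderm gate, and 46.8 of Cldn4 (36.4 to 59.4). Ocln, by contrast, was at 4.13 CPM (1.52 to 8.99) in the salivary gate, about the level of the other cells, and at 16.7 (9.56 to 27.2) in the tongue gate. F11r was at 50.2 CPM (37.0 to 66.5) in the tongue gate, beside 49.9 in the periderm gate. From the wider list the salivary gate had Cldn10 at 74.4 CPM against 4.98 in the other non-periderm cells and Cgnl1, the scaffold paracingulin, at 272 against 41.5, a comparison made after the values were seen.

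At E9.5 the epithelium gate took cells with 3 or more UMIs of Epcam and Cdh1, no UMI of Foxa1, Foxa2 or Pax1, at most 1 of Cdh5, Pecam1 and Kdr and at most 2 of Prrx1 and Twist1 (2503 cells, median 12670 UMIs). The mesenchyme gate took cells with 3 or more UMIs of Prrx1 and Twist1 and none of the epithelial or endothelial gate genes (4787 cells, median 15563 UMIs). Keratins Krt8 and Krt18 were at 433 and 687 CPM in the epithelium and 28.7 and 37.6 in the mesenchyme gate. Embryonic globin Hbb-y, at 135.5 CPM in the epithelium and 293 in the mesenchyme gate, was present in both, and Prrx2 stood at 37.9 CPM in the epithelium gate against 337 in mesenchyme.

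Of the 8 genes, 6 were measurable and all 6 were raised in the E9.5 epithelium gate over mesenchyme. Cldn3, Cldn4, Cldn6, Cldn7 and F11r were measurable only through the epithelium gate, so they could not have been called lowered. Of all 7746 measurable genes 26.3% were raised. The median log2 ratio was 5.13 over the 8 and 0.09 over all. Cldn7 was at 161 CPM (156 to 165) against 3.65 (3.22 to 4.12) and Cldn6 at 145 (141 to 149) against 3.74 (3.31 to 4.22), log2 ratios of 5.46 (5.28 to 5.64) and 5.27 (5.10 to 5.45). Cldn3 was at 26.5 CPM (24.8 to 28.3) against 0.594, Cldn4 at 15.8 (14.5 to 17.2) against 0.497 and F11r at 18.5 (17.0 to 20.0) against 1.77. Ocln at 12.5 CPM (11.4 to 13.8) against 0.221 had the highest ratio, 5.83 on the log2 scale (5.11 to 6.65), but missed the criterion with a UMI in 14.3% of cells.

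Tjp1 was the 1 member with a sizeable level in mesenchyme, 64.9 CPM (63.1 to 66.8) with a UMI in 55.5% of cells, against 170 (165 to 174) in epithelium. For Cldn6 and Cldn7 the mesenchyme gate and the endothelium gate described below gave almost the same low shares. A UMI of Cldn6 was found in 5.47% of mesenchyme and 5.51% of endothelium gate cells, and of Cldn7 in 5.33% and 5.30%. Whether these counts are background or low expression was not tested. Cldn1 was at the limit of counting in the E9.5 epithelium, with 13 UMIs in 2503 cells, or 0.396 CPM (0.211 to 0.677), against 0.166 (0.0857 to 0.290) in mesenchyme.

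Other tight junction genes followed epithelium at E9.5, where 20 of the 47 were measurable. Of these 17 were raised and 1, Jam3, was lowered, against 26.3% and 12.9% of the 7746 genes. The 5 with the largest ratio were Crb3 (48.8 against 0.995 CPM), Cgn (40.4 against 1.51), Marveld2 (15.4 against 0.649), the polarity scaffold Patj (39.0 against 2.32) and the polarity protein Pard6b (20.3 against 2.57).

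The endoderm gate (2 or more UMIs of Epcam and Cdh1 and 2 or more of Foxa1, Foxa2 and Pax1, 325 cells) was compared with the epithelium gate. The epithelium gate may hold endoderm cells without a UMI of Foxa1, Foxa2 and Pax1, and their share was not tested. In the endoderm gate the markers Pax9 and Shh were at 58.9 and 16.8 CPM against 2.13 and 3.62, whereas Nkx2-1 and Hhex, at 0.207 and 3.73 CPM, were below the 2.01 and 7.79 of the epithelium gate. Ocln was the 1 member of 8 that was raised, at 21.8 CPM (17.8 to 26.4) against 12.5 (11.4 to 13.8) and a log2 ratio of 0.80 (0.47 to 1.11), where 5.92% of 7822 genes were raised. Ocln was measurable only through the endoderm gate. In cells thinned to 4100 UMIs its log2 ratio was 0.67, but fewer than 15% of cells had a UMI and the call was lost. None of the 8 was lowered, against 4.82% of all. Cldn6 was at 172 CPM against 145, a log2 ratio of 0.25 (0.14 to 0.35) that turned to -0.03 without an upper gene limit. Ratios of Cldn3 (-0.17 to 0.36), Cldn4 (-0.10 to 0.57), Tjp1 (-0.10 to 0.12) and F11r (-0.53 to 0.17) had intervals that spanned 0 on the log2 scale, and Cldn7 was at 149 CPM against 161.

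The Sfn gate asked whether epithelial cells that express stratifin, a periderm-associated gene, already carry more junction transcripts at E9.5. It held the 258 epithelium gate cells with 2 or more Sfn UMIs, of 352 such cells in the library, with 2245 epithelium gate cells of 0 or 1 Sfn UMI beside them. Of the markers of periderm and suprabasal cells, Zfp750 stood at 0.8 against 0.619 CPM and Rhov at 0.8 against 0.859. These levels were far under those of the E12.0 periderm gate. Krt14 (31.7 against 15.3) and Perp (45.6 against 24.6) were higher in the Sfn gate. It is called by its rule here.

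None of the 8 genes was raised in the Sfn gate, where 3.44% of 7736 genes were, and 1 was lowered, where 2.24% were. The lowered gene was Cldn6, at 111 CPM (101 to 122) against 149 (145 to 154), a log2 ratio of -0.42 (-0.57 to -0.28). Cldn7 at 154 and 162 CPM, Cldn3 at 26.1 and 26.6, Cldn4 at 15.2 and 15.9 and Ocln at 12.8 and 12.5 had log2 intervals spanning 0, namely -0.19 to 0.06, -0.34 to 0.28, -0.49 to 0.34 and -0.43 to 0.47. Cldn1 had 0 UMIs in the gate, with an exact interval that reaches 0.984 CPM. Tjp1 was at 184 CPM against 168 (0.13, 0.01 to 0.25; -0.15 in thinned cells) and F11r at 18.9 against 18.4. The call of Cldn6 was lost without an upper gene limit and with gate thresholds 1 UMI higher or lower. In the wider list Cldn10 was lowered, at 7.20 CPM against 19.9.

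The endothelium gate (3 or more UMIs of Cdh5, Pecam1 and Kdr and at most 1 of Epcam and Cdh1, 472 cells) showed a different set. Endothelial markers were strong, with Emcn at 380 CPM against 3.92 in mesenchyme and Ramp2 at 588 against 9.51. Tjp1 and F11r, the only 2 of the 8 members that were measurable, were both raised, as were 24.4% of 7914 measurable genes. F11r was measurable only through the endothelium gate, so it could not have been called lowered. Tjp1 was at 233 CPM (222 to 244), above the 170 of epithelium, and F11r at 26.4 (22.8 to 30.4), above the 18.5 of epithelium, with log2 ratios over mesenchyme of 1.84 (1.76 to 1.92) and 3.90 (3.57 to 4.23). The 5 claudins were at 0 to 3.71 CPM, and Ocln at 1.24 CPM from 9 UMIs (0.566 to 2.35).

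In place of those claudins the endothelium gate had Cldn5, the claudin of vessel walls, at 389 CPM against 1.73 in mesenchyme. Esam, an endothelial relative of the JAM proteins, was at 205 CPM against 1.64, Cgnl1 at 162 against 16.8, Magi3 at 74.2 against 11.6 and Magi1 at 12.6 against 6.99, and these were the 5 raised of the 16 measurable list genes, while 6 were lowered, against 24.4% and 17.4% of the 7914 genes.

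The claudin make-up of each group, the share of each claudin among all claudin UMIs, sets these patterns side by side. In the E9.5 epithelium gate with 0 or 1 Sfn UMI, Cldn7 and Cldn6 gave 40.4% (39.5 to 41.3) and 37.3% (36.4 to 38.2) of 11639 claudin UMIs, and Cldn4 and Cldn1 gave 3.97% and 0.112%. In the E12.0 periderm gate Cldn7 and Cldn6 gave 29.8% (27.8 to 31.9) and 28.5% (26.6 to 30.6) of 1979, with 15.9% (14.3 to 17.6) for Cldn4 and 5.15% for Cldn1. In the other E12.0 cells Cldn6 and Cldn7 led as well, with 36.5% (35.6 to 37.5) and 22.6% (21.8 to 23.4) of 10779. Cldn4 gave 12.9% (12.3 to 13.6) and Cldn1 9.52% (8.97 to 10.1) there. Cldn1 made up 32.1% (25.8 to 38.8) of the 212 claudin UMIs of the initiation knot gate, beside 31.6% (25.4 to 38.3) for Cldn6. Cldn10 made up 23.9% (20.1 to 28.2) of the 451 of the salivary gate, beside 24.6% (20.7 to 28.9) for Cldn6. Cldn5 made up 95.6% (94.8 to 96.3) of the 2962 of the endothelium gate.

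**Figure D4:**
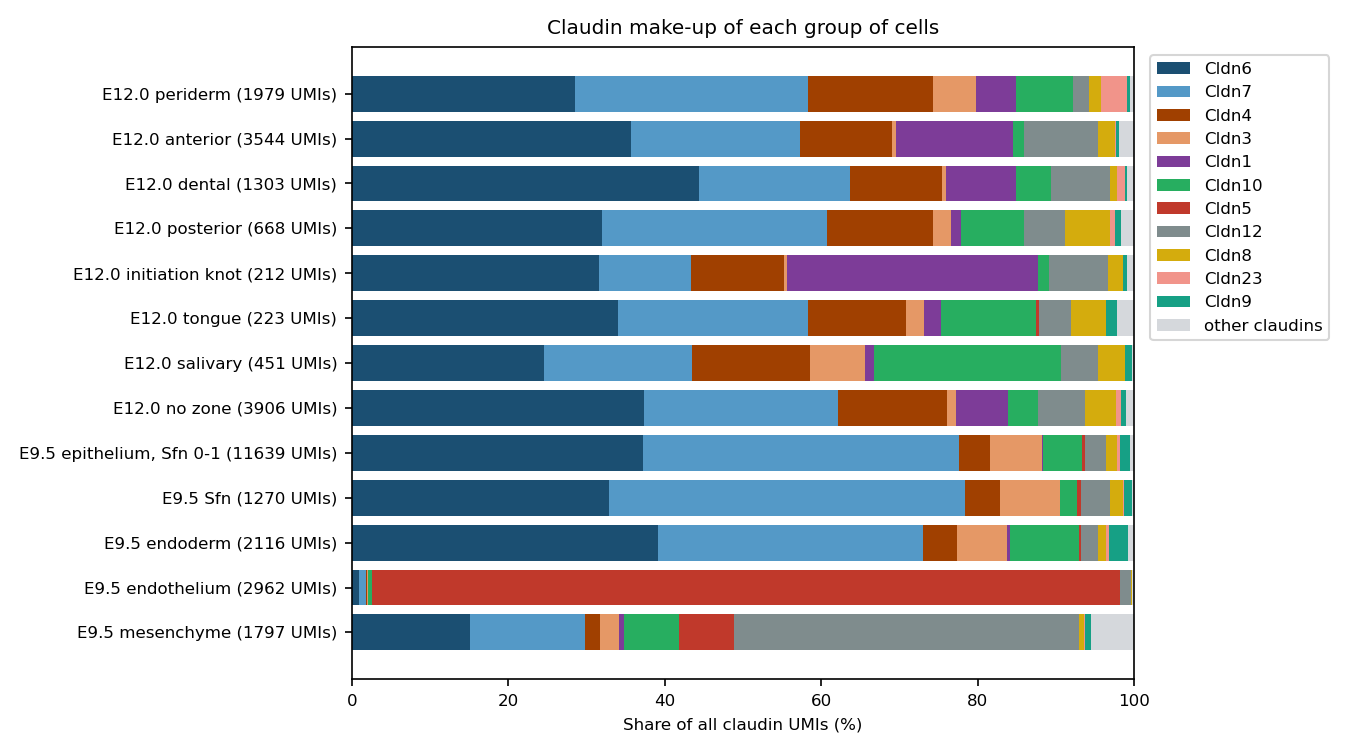
Share of each claudin among all claudin UMIs (horizontal axis, %) in 13 groups of cells (rows, with the number of claudin UMIs). Cldn6 and Cldn7 lead in E9.5 epithelium, E12.0 periderm and the E12.0 anterior, dental and posterior zones. Cldn1 takes 32.1% in the initiation knot gate, beside 31.6% for Cldn6, and Cldn5 takes 95.6% in E9.5 endothelium.

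Between the stages the 8 genes split into distinct patterns, read over the 27514 genes listed in both libraries. Against the E9.5 epithelium gate with 0 or 1 Sfn UMI, the E12.0 cells outside periderm had 1 member raised, where 34.3% of 7619 measurable genes were, and 4 lowered, where 26.1% were. Of the 8 members 6 were measurable here. Cldn3 was lowered most, from 26.6 to 1.72 CPM, a log2 ratio of -3.95 (-4.24 to -3.68). Cldn7 went from 162 to 33.0 CPM (-2.29, -2.37 to -2.22), Cldn6 from 149 to 53.2 (-1.49, -1.55 to -1.43) and Tjp1 from 168 to 98.2 (-0.78, -0.83 to -0.72). F11r was raised, from 18.4 to 34.7 CPM (0.91, 0.78 to 1.05). The median log2 ratio of all 7619 genes was 0.09. Cells of the E9.5 side were chosen by their UMIs of Epcam and Cdh1, and 4657 E9.5 cells fell in none of the E9.5 gates. The E12.0 cells were sorted by GFP and had no such limit. The part of this selection in the ratios between the stages was not tested.

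The remaining members did not meet the criterion. Ocln went from 12.5 to 4.84 CPM (-1.37, -1.59 to -1.16) and Cldn4 from 15.9 to 18.8 (0.24, 0.09 to 0.40), a ratio that turned to -0.06 in thinned cells. Cldn1 went from 0.447 to 13.9 CPM, a log2 ratio of 4.95 (4.17 to 5.87), with a UMI in 8.12% of the E12.0 cells.

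The E12.0 periderm gate, compared with the same E9.5 cells after the values had been seen, was at a similar level for the claudins that were lower outside it. Cldn6 was at 151 CPM in periderm and 149 at E9.5 (log2 ratio 0.02, -0.11 to 0.15), Cldn7 at 158 and 162 (-0.03, -0.16 to 0.09) and Cldn3 at 29.2 and 26.6 (0.13, -0.17 to 0.42). Tjp1 was at 195 and 168 CPM (0.21, 0.10 to 0.32), and its ratio turned to -0.05 with the gates 1 UMI lower. In this comparison 4 members were raised, against 37.4% of 7804 genes, and 0 lowered, against 28.5%. Of those raised, Cldn1 and Ocln were measurable only through the periderm gate. Cldn1 was at 27.3 CPM against 0.447 (5.93, 5.09 to 6.89), Cldn4 at 84.3 against 15.9 (2.41, 2.20 to 2.62), Ocln at 51.1 against 12.5 (2.03, 1.77 to 2.29) and F11r at 50.05 against 18.4 (1.44, 1.19 to 1.68). With the gates 1 UMI lower, Cldn3 and Cldn7 were lowered in periderm against E9.5.

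**Figure D5:**
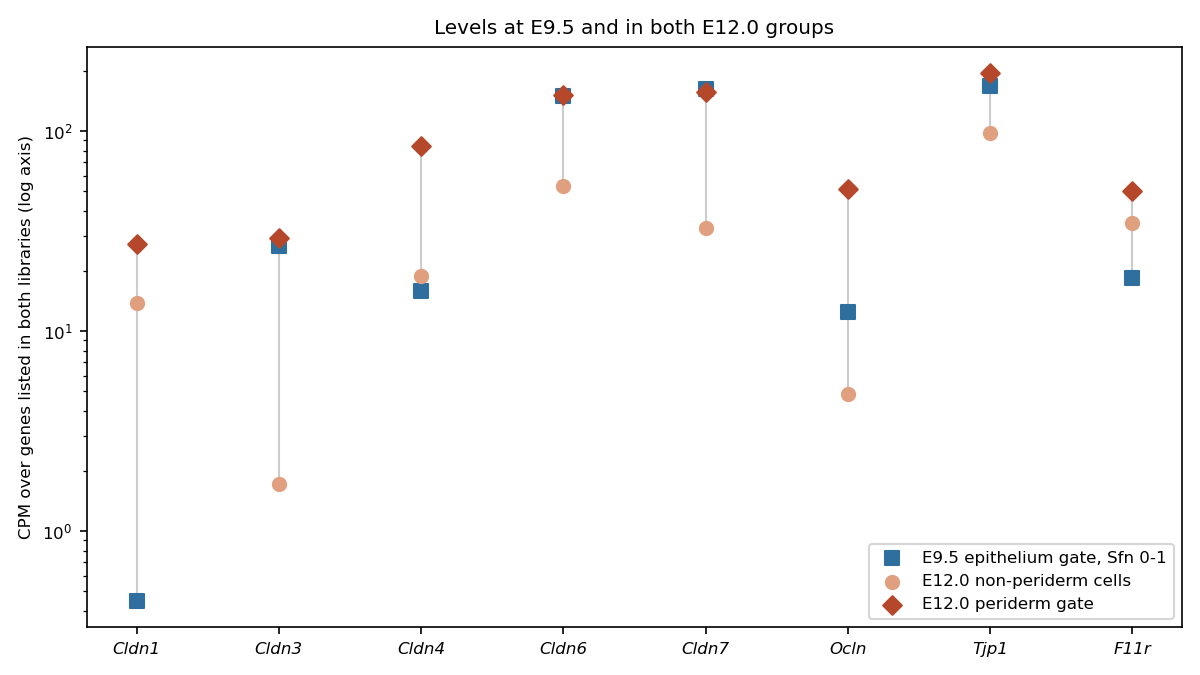
CPM of each gene over the genes listed in both libraries (vertical axis, log scale) in the E9.5 epithelium gate with 0 or 1 Sfn UMI (blue squares), E12.0 non-periderm cells (pale circles) and the E12.0 periderm gate (red diamonds). For Cldn3, Cldn6 and Cldn7 the squares and diamonds nearly coincide above the circles, whereas for Cldn1, Cldn4, Ocln and F11r the diamonds lie above both.

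The genes most like each member were found by Pearson's r of log2(CPM + 10) over 12 groups of cells, among 5354 genes that reached 50 CPM in at least 1 of them. The groups share libraries and cell sort, so r is a description of these groups. Cldn6 and Cldn7 were among each other's 3 nearest genes (r = 0.946), and Cldn7 was the second nearest gene to Cldn3 (0.901). Rab25, an epithelial trafficking GTPase, was nearest to both Cldn7 (0.966) and Cldn3 (0.908). Spint1, a protease inhibitor of epithelia, was nearest to Cldn6 (0.971), Lad1, a basement membrane filament protein, to Cldn4 (0.962), and Mylip to Cldn1 (0.987). Tjp1 had Cmas nearest (0.860) and F11r had Add1, the cytoskeletal protein adducin (0.971). The other near genes were Mxd4 and Frmd6 for Cldn1, Rab11fip1 for Cldn3, Erbb3 and Ap3d1 for Cldn4, Stard10 for Cldn6, Slc9a3r1 for Cldn7, Cstb for Ocln, Rtn4 and Cmtm8 for Tjp1, and Ap3b1 and Plec for F11r, with r from 0.826 to 0.970.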

How the data were processed

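Both libraries were made with 10x Genomics 3′ chemistry. The deposited values are UMI counts per gene and cell barcode, not normalized, with barcodes already selected as cells by the authors. The methods and the submitters' processing notes name Cell Ranger 2.0.0 and GRCm38, while the file headers name software versions 3.1.0 and 6.1.2. All cells of a gate were summed, and intervals are exact Poisson for CPM, exact binomial for shares and for the split of counts behind a ratio. Depth over the kept cells was 77936364 UMIs for E12.0, with 166191431 UMIs for E9.5. Scrublet in scanpy 1.11.5 called 661 and 331 doublets (scores above 0.180 and 0.278, seed 1), which were kept. Thinning left out 1024 and 1759 cells under 4100 UMIs. Patj, Pals1 and Rtl3 were read under their older symbols. Python 3.11.15, numpy 2.4.6, scipy 1.17.1, pandas 2.3.3 and matplotlib 3.10.9 were used. The calculation of calls and intervals was checked on simulated Poisson counts with known fold changes. These held no doublets, no selection by marker genes and no spread between cells or embryos beyond depth. The check therefore says nothing about how the intervals cover such spread.

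The members and lists were chosen with earlier results of these data known. The genes named are the 8 members, at most the 5 tight junction list genes with the largest ratio per comparison among those past the size criterion, and the 3 genes nearest to each member. Some genes that these rules or the gates and marker lists hold are not reported here. The comparison of the periderm gate with E9.5, the salivary and initiation knot comparisons, the division of the periderm gate and the claudin make-up were added after the data had been seen. Alternatives changed the mitochondrial, gene, doublet and gate limits, the weighting and depth of cells, and the criterion. Protein sequences were not used here.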

Additional observations from a re-analysis of the deposited data

Results flagged for a closer look

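Cldn7 had opposite signs in the 2 stages when the same 4 periderm gate genes (3 or more UMIs) divided the epithelium. Its log2 ratio was 2.26 (2.13 to 2.39) at E12.0, from 158 against 32.9 CPM, and -0.71 (-1.16 to -0.29) within the E9.5 epithelium gate, from 98.6 against 162 CPM. The E9.5 side rests on 30 cells, with a median of 16438 UMIs against 12633 in the other 2473. Ocln, F11r and Cldn3 were also negative in this E9.5 split, at -1.56 (-4.61 to 0.30), -0.53 (-1.98 to 0.60) and -0.31 (-1.38 to 0.58). Their intervals span 0. Tjp1 was positive at both stages, 0.99 and 0.71 (0.44 to 0.96). Cldn4 and Cldn6 were positive at E9.5 with intervals spanning 0, and Cldn1 had 0 CPM in the 30 cells. The differences between the stages were not tested.

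Cldn6 had opposite signs when cells were divided by 2 or more Sfn UMIs. Its log2 ratio was 0.41 (0.32 to 0.50) at E12.0, where 3212 cells met the limit and had 69.6 against 52.3 CPM, and -0.42 (-0.57 to -0.28) in the E9.5 epithelium gate. The E12.0 split includes the periderm gate cells, whose part in this ratio was not tested. This difference between the stages was not tested either, and the stages cannot be told apart from their libraries.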

How the results depend on the processing

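None of the log2 ratios of members that met the size criterion changed sign under the 7 alternatives that recompute ratios. Thinning cells to 4100 UMIs moved most. It left 285 periderm gate and 21 Sfn gate cells and put 33 of 55 ratios outside their counting interval. The members raised changed to 3 in E9.5 epithelium, 1 in endothelium and 2 in the Sfn gate. Those raised or lowered changed to 0 in endoderm and 3 between E12.0 non-periderm cells and E9.5. Why thinning moved these values was not tested. Asking for a CPM ratio of 2 left 4 members raised in periderm, 0 in endoderm, 3 between the stages and 1 between zones. The other alternatives kept within 1.5 times the counts of members raised in periderm, E9.5 epithelium, the Sfn gate and endothelium, and those raised or lowered in endoderm, between zones and between E12.0 non-periderm cells and E9.5. The 1 member lowered in the Sfn gate went to 0 without an upper gene limit and with gate thresholds 1 UMI higher or lower, and the 0 lowered in periderm against E9.5 went to 2 with thresholds 1 UMI lower. Among members that met the criterion, some log2 ratios moved by more than 1.5 times in fold: Cldn1 in periderm to 1.92 and Cldn3 between E12.0 non-periderm cells and E9.5 to -3.31 with at most 5% mitochondrial counts, and, in thinned cells, Cldn4 in E9.5 epithelium to 5.77, Cldn6 in the Sfn gate to -1.03 and Cldn1 in periderm against E9.5 to 7.05. The cause was not tested. The limit of 5% mitochondrial counts left 157 periderm gate cells and put 12 of 56 ratios outside their interval. Leaving out called doublets put 5 of 56 outside. No paired analysis was possible because each group is 1 library. With 1 pooled sample per stage, the spread between embryos is unknown, and Cldn1, with 0 UMIs in both the Sfn and the endothelium gate, cannot be ordered between them.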

Other observations

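In E9.5 mesenchyme the leading claudin was not a member. Cldn12, a claudin without the usual scaffold-binding end, was at 10.96 CPM there, close to the 10.9 of the epithelium gate, and made up 44.1% of its 1797 claudin UMIs, against 1.49% of those in the endothelium gate and 2.77% in the epithelium gate. Jam3, a relative of F11r, was higher in mesenchyme than in epithelium, at 53.5 CPM against 32.5, and F11r was at 1.77 against 18.5. Cldn9, the neighbour of Cldn6, was at 5.27 CPM in the E9.5 epithelium gate where Cldn6 was at 145.

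At E12.0 Sfn was no longer limited to few cells. The 3212 cells with 2 or more Sfn UMIs had 12.1 CPM of Ocln against 4.71 in the other 8143, 56.5 of Cldn7 against 30.7, 29.0 of Cldn4 against 18.6 and 5.43 of Cldn3 against 1.92. The 2 sets together are all 11355 kept cells, so the 503 periderm gate cells are among them. Median depth was 6926 UMIs in the cells with 2 or more Sfn UMIs against 6193 in the others. The parts of depth and of the periderm gate cells in these values were not tested.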
